A study of Mus musculus with 20 samples.

Results

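The change from epiblast-like cells (EpiLCs) to aggregates on day 1 was measured in 2 mouse lines pooled, the Parental clone and the A line, whose one additional transgene codes for Tfap2c. They supply 8 of the 20 microarrays, 4 at each stage with 2 per line, and 652 of the 14002 genes tested changed in both lines (392 rose and 260 fell). Both lines are male, of strain C57BL/6;129, and carry the transgenes Blimp1-mVenus, stella-ECFP and Rosa26-rtTA, the last of which supplies a doxycycline-responsive activator. The A line (clone #8-2) adds V5-Tfap2c behind a tetO promoter in a piggyBac vector, and each line is a single clone. EpiLCs were collected 36 h after leaving feeder-free embryonic stem cell culture in 2i and LIF. Aggregates were started with 2000 cells per well and kept for 24 h in GK15 medium with 1.5 µg/ml doxycycline. All aggregates received doxycycline, so aggregation, medium, doxycycline and the passing of a day cannot be told apart. The remaining 12 arrays are of 3 lines labelled as carrying a Blimp1 transgene (B), a Prdm14 transgene (P14) or both of these with Tfap2c (BP14A).

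EpiLCs are a culture state close to the epiblast of the embryo shortly after implantation, the tissue from which both the germ layers and the germ line arise. When such cells are lifted from the dish into floating aggregates they lose contact with the coated surface and with the growth factors of the adherent medium. Germ cell inducing signals, or the factors Blimp1 (encoded by Prdm1), Prdm14 and Tfap2c acting together, can then direct them to primordial germ cell fate. The lines described here serve as the baseline, in which the aggregates receive neither Blimp1 nor Prdm14.

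The markers of the labelled cell type were present on all arrays. All 6 EpiLC markers (Fgf5, Pou3f1, Dnmt3b, Otx2, Pou5f1 and Sox2) were above the detection filter, a log2 value of 3.95, at both stages, with array means of 11.56 to 11.67 in EpiLCs and 11.47 to 11.62 on day 1. All 6 naive stem cell markers and all 3 neural markers were also above it at both stages. The array means of the naive markers were 6.88 to 7.08 in EpiLCs and 6.17 to 6.29 on day 1, and those of the neural markers 4.92 to 5.52 and 5.97 to 6.28. Neither set overlapped between stages, and their part in the results was not tested. Whether the A line made its factor was not shown. At the gene's tested probe set, Tfap2c read 5.28 and 5.08 in A line EpiLCs and 5.80 and 6.08 in its aggregates, against 5.69 and 5.68, then 6.38 and 6.29, in the Parental clone. The A line was thus not higher than the Parental clone at either stage, and no source used here says whether the probes can read the transgene. One technical measure moved with the stage. The control probe set for the middle of 18S ribosomal RNA read 11.04 to 11.67 on EpiLC arrays and 11.89 to 12.16 on day 1 arrays, and its part in the changes was not tested. The 5′ to 3′ differences of Gapdh overlapped (0.11 to 0.15 and 0.13 to 0.17). Arrays of one group are described by the submitters as biological duplicates, 2 for each.

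A gene counted as called where limma gave an adjusted p under 0.05 together with a log2 change of 1 or more in size. In the pooled comparison, with line as a covariate, 509 genes rose (3.64% of those tested) and 348 fell (2.49%). Changed in both lines means that the gene was also called, in the same direction, within each line alone, which held for 2.8% of tested genes upward and 1.86% downward. The median size was 1.49 among those that rose and 1.64 among those that fell. The tail was longer than these medians show, with 87 rises and 76 falls of at least 2 and 17 of each of at least 3. At the edge of the rule, the smallest pooled changes were 1.01 for Fam184b and -1.02 for Fbln5. Over all tested genes the median change was 0.04, with a median standard error (SE) of 0.09. All 652 had EpiLC and day 1 arrays that did not overlap, as had 26% of all tested genes upward and 15.3% downward, and the call rule favours this. Whether fewer cells of a type or less RNA per cell lies behind a fall cannot be told apart in such whole-aggregate RNA.

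The stage change was much alike in the lines. Called alone, the Parental clone had 919 genes (6.56%) and the A line 852 (6.08%), and no gene was called in opposite directions. The difference between the lines in this change passed the test for 0 genes with limma, while 652 genes, by coincidence the same number as above, had an unadjusted p under 0.05 (4.66% of those tested). The lowest adjusted p of the difference was 0.55, for Crct1. That does not show the lines to be alike: the median SE of the difference was 0.19, and across all tested genes the difference had a standard deviation of 0.34. Of the genes changed in both lines, 570 differed between lines by under 0.5 and 11 by 1 or more, from -1.61 (A minus Parental) for Zbtb42 to 1.08 for 1700029P11Rik. These genes were chosen for a call in the same direction in each line, which by itself favours small differences. A further 205 genes were called in the pooled comparison without passing in each line alone. They moved with the same sign in both lines, which the pooled call by itself favours. Their median sizes were 1.07 (117 rises) and 1.09 (88 falls).

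**Figure D1:**
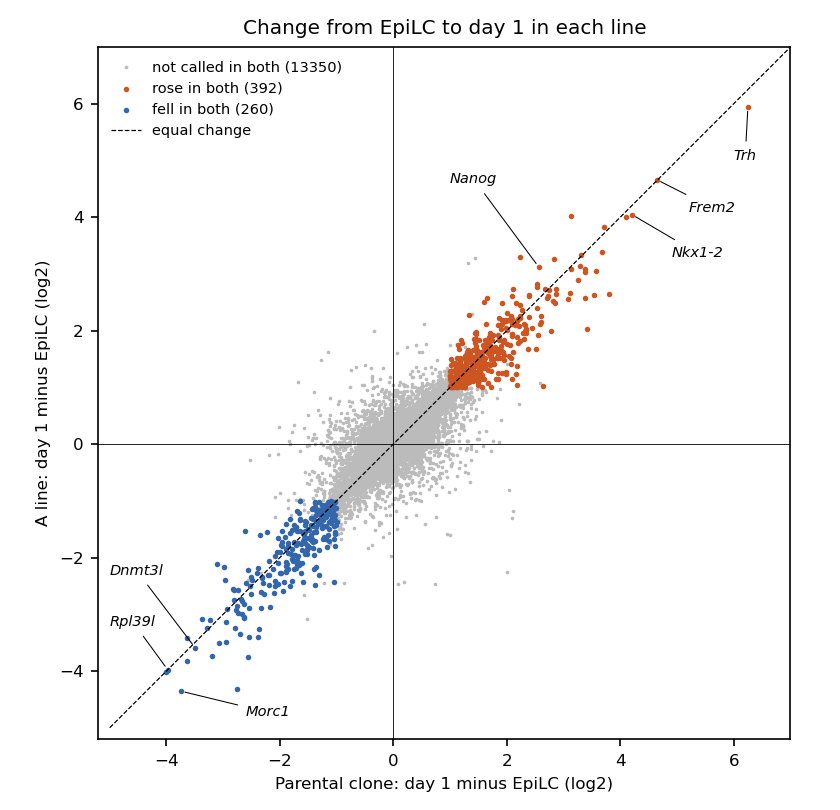
Change from EpiLC to day 1 (log2) in the Parental clone (horizontal) and in the A line (vertical), one point per tested gene, with the dashed line marking equal change. The 392 genes that rose in both lines (orange) and the 260 that fell in both (blue) lie near that line, which the rule that chose them favours. Trh stands farthest out at 6.25 and 5.94.

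Trh, the precursor of thyrotropin-releasing hormone, made the largest rise. Its EpiLC arrays read 5.90 and 5.99 in the Parental clone and 6.50 and 6.04 in the A line, and its day 1 arrays 12.28, 12.11, 12.13 and 12.29. The stages lay far apart in both lines, and the pooled change of 6.10 ± 0.12 (SE) was a 68.4-fold rise (adjusted p = 6.56e-06). Frem2, an extracellular matrix protein of basement membranes, went from 3.66 to 3.91 in EpiLCs to 8.05 to 8.66 on day 1 (4.65 ± 0.14). Nkx1-2, a homeobox gene of the caudal epiblast, read 3.11 and 3.20 in Parental EpiLCs, 3.87 and 3.31 in those of the A line, and 7.63, 7.09, 7.52 and 7.75 on day 1. Its change was 4.12 ± 0.16 (adjusted p = 1.28e-05), while its other kept probe set changed by 0.26. Zeb2, a transcriptional repressor active when epithelial cells become mesenchymal, rose by 4.05 ± 0.22, from at most 2.26 to at least 5.44.

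Fgf8, the fibroblast growth factor of the primitive streak, read 1.44, 2.74, 2.81 and 2.57 in EpiLCs and 5.98, 5.64, 6.50 and 6.54 on day 1. The first Parental EpiLC array stood below the other three, and the groups were still well apart (3.78 ± 0.26, adjusted p = 7.95e-05). Sp8, a zinc finger gene of the same embryonic region, rose by 3.54 ± 0.14. Prtg, a cell surface protein of the early embryo, went from 7.65 to 8.30 in EpiLCs to 11.02 to 11.33 on day 1, a change of 3.24 ± 0.13. Pcdh8, a protocadherin of the paraxial mesoderm, rose by 3.12 ± 0.08, from 3.72, 3.93, 4.43 and 4.24 to 6.84, 7.09, 7.47 and 7.39. The other genes among the 15 largest rises were Cda (cytidine deaminase, 3.58), Uap1l1 (3.32), Greb1l (3.31), Stmn4 (a stathmin that binds tubulin, 3.23), Mcoln3 (a cation channel of endosomes, 3.22), Cracd (3.20) and Plce1 (a phospholipase C, 3.08). EpiLC means lay below 3.95 for Frem2, Nkx1-2, Zeb2, Fgf8, Sp8, Stmn4 and Plce1, and for 65 of the 392 rises in all, so the sizes of these rises are approximate.

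The largest falls began with Morc1, Rpl39l and Hormad1. Morc1, which represses transposons in male germ cells, read 8.19 and 8.13 in Parental EpiLCs and 7.48 and 7.98 in those of the A line, then 4.30, 4.53, 3.07 and 3.68 on day 1. It fell by 4.05 ± 0.20 (SE, adjusted p = 2.47e-05), and its A line arrays were the lower ones at both stages. Rpl39l, a ribosomal protein gene used in the testis, fell by 3.98 ± 0.13, with a change of -3.98 in each line. Its transcript is close in sequence to that of Rpl39, and how far the probe set keeps them apart was not tested. Dnmt3l, the cofactor of the de novo DNA methyltransferases, read 9.30, 9.26, 8.58 and 8.81 in EpiLCs and 5.87, 5.70, 4.71 and 5.50 on day 1. It fell by 3.54 ± 0.17 (adjusted p = 2.11e-05).

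Tdrd12, which takes part in piRNA production, fell by 3.28 ± 0.19, from 8.98 to 9.39 in EpiLCs to 5.30 to 6.32 on day 1. Fermt3, an integrin activator of blood cells, fell by 3.53 ± 0.15, and Psma8, a proteasome subunit of spermatocytes, by 3.04 ± 0.12. Drd1, a dopamine receptor, had 1 array far below the rest. Its day 1 arrays read 2.72, 3.07, 2.58 and 0.09, the last being replicate 2 of the A line, against 5.44 to 5.85 in EpiLCs, and its SE of 0.57 was the widest among the 30 largest changes. Rex2 (-3.47), Eprn (-3.26), Lrrc2 (-3.22), Ifi35 (an interferon-induced gene, -3.22), Dlc1 (-3.17), Nat8f2 (-3.16) and Mageb16 (an X-linked gene of the testis, -3.03) completed the 15 largest falls. Day 1 means lay below 3.95 for Morc1, Drd1, Lrrc2 and Nat8f2, and for 54 of the 260 falls in all. None of the 30 largest changes lost its call in any alternative in which it was tested.

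**Figure D2:**
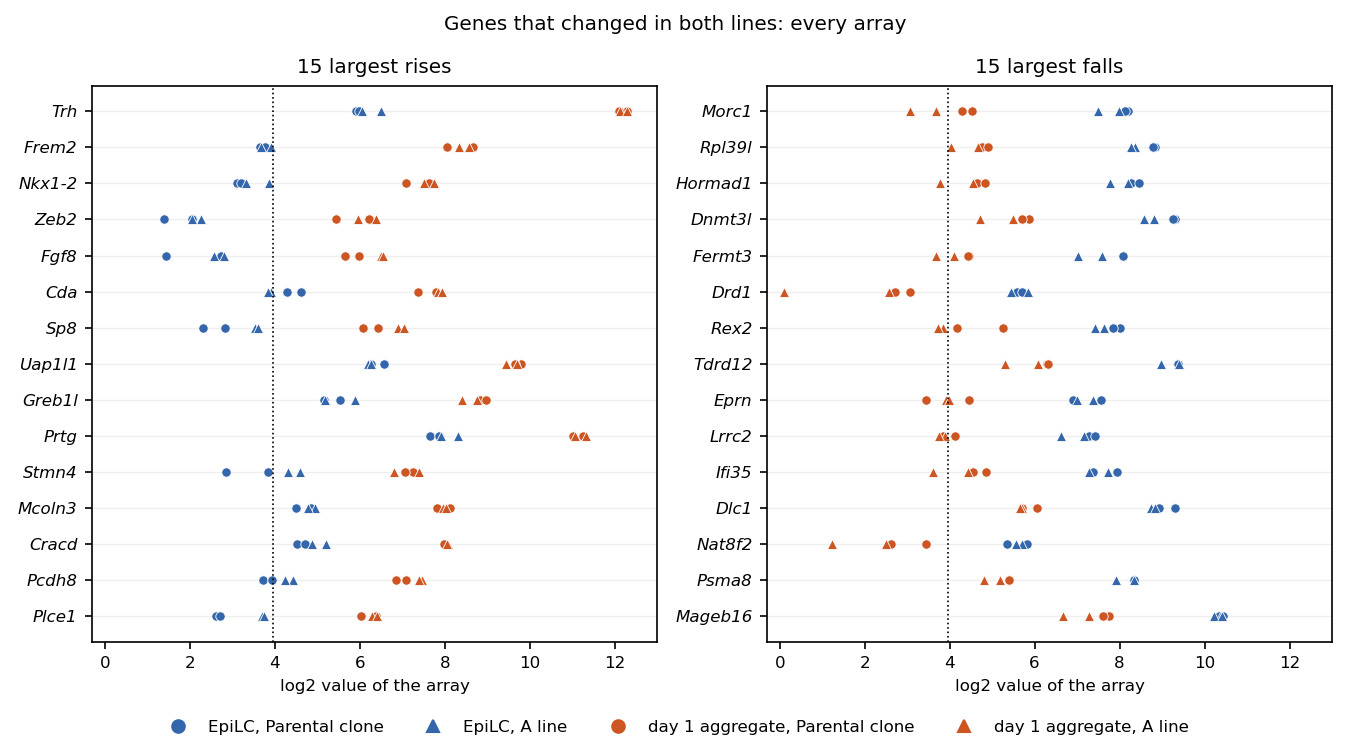
Log2 value of every array for the 15 largest rises (left) and the 15 largest falls (right) among genes changed in both lines, with blue for EpiLCs, orange for day 1, circles for the Parental clone and triangles for the A line. The dotted line is the detection filter of 3.95, and the stages separate in each gene, with Drd1 at 0.09 on 1 day 1 array of the A line.

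Of 23 tested later germ cell and meiosis genes, 13 fell (11 of them in both lines) and 0 rose. Of all tested genes 2.49% fell and 3.64% rose, and these shares also apply to the list counts below. The later germ list's median change was -1.19 against 0.04 over all tested genes. The listed genes encode proteins of the meiotic chromosome axis, the piRNA pathway and germ cell RNA control. In embryonic cells many of them are held silent by DNA methylation. Besides Morc1 and Rpl39l, Hormad1, a protein of the meiotic chromosome axis, read 8.27, 8.45, 7.78 and 8.19 in EpiLCs and 4.64, 4.82, 3.78 and 4.56 on day 1. It fell by 3.72 ± 0.18 (SE, adjusted p = 2.45e-05). Sohlh2, a germ cell transcription factor, fell by 2.72 ± 0.16, from 7.76 to 8.53 in EpiLCs to 5.18 to 5.97 on day 1. Tex19.1, which restrains transposons in the germ line, fell by 1.95 ± 0.13, and Tex11, an X-linked gene of meiotic recombination, by 1.76 ± 0.32.

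Other members that fell in both lines, named here after their values were seen, were Dazl (a germ cell RNA-binding protein, -1.72), Stag3 (a meiotic cohesin subunit, -1.70), Mael (a piRNA pathway protein, -1.58), Stk31 (-1.32) and Sycp1 (a synaptonemal complex protein, -1.19). The list did not move as one. Sycp3, another synaptonemal complex protein, changed by 0.34 (adjusted p = 0.133), Ddx4, a germ cell RNA helicase, by -0.24 (adjusted p = 0.144) and Rec8, a meiotic cohesin, by 0.64, which is below the size limit.

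The promoters of several members share the hexamer CACGTG, an E-box that reads the same on both strands and is known to be bound by MAX and MGA, proteins of a complex that represses germ cell genes in stem cells. In the 250 bases before the first listed start it occurred in 5 of 9 later germ genes that fell in both lines and have a listed promoter (55.6%), and in 10 of all 20 tested members with one (50.0%). Among all tested genes with a promoter the share was 8.27%. It was 9.05% among those that fell in both lines and 8.14% among those that rose. The hexamer was thus present in members of this germ cell list that were not called, Ddx4 and Sycp3 included, and its share among all genes that fell was near that of all tested genes. Shown are 3 members that fell and Sycp3, which was not called, from RefSeq on build GRCm38.p6, each running 5′ to 3′ up to the base before the start, with CACGTG in capitals. The stretches are chr3:95559427-95559676 on the plus strand (Hormad1), chr5:138280259-138280508 on the plus strand (Stag3), chr1:166238745-166238994 on the minus strand (Mael) and chr10:88459337-88459586 on the plus strand (Sycp3).
Hormad1: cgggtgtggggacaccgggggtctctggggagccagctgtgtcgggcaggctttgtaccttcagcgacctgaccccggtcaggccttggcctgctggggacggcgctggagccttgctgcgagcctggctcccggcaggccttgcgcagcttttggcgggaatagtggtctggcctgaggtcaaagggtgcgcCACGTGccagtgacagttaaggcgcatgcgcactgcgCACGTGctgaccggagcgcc
Stag3: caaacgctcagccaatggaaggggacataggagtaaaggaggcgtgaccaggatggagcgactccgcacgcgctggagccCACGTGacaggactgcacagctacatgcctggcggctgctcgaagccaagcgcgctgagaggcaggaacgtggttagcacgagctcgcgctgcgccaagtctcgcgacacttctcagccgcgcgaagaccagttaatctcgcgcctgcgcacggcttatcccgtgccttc
Mael: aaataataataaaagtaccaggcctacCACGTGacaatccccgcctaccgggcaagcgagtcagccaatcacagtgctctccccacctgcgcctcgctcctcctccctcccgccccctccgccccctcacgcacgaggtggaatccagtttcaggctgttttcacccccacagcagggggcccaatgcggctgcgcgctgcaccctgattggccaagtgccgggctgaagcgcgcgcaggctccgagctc
Sycp3: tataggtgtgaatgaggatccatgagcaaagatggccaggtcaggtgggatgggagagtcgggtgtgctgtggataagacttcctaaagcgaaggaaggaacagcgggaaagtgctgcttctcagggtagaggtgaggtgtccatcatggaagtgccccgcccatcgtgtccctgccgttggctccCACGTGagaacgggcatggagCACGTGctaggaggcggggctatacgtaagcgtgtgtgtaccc
Hormad1 and Sycp3 each hold the hexamer 2 times and the others once. A match is a string of letters and not evidence of binding.

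Pluripotency genes split. Among 13 tested members of the core list 1 rose and 4 fell, each in both lines (median -0.36). Among 19 naive genes 1 rose and 7 fell (median -0.34). The shares of all tested genes were 3.64% for rises and 2.49% for falls. Nanog, a homeodomain factor of pluripotent cells, read 8.25, 7.98, 7.81 and 7.84 in EpiLCs and 10.79, 10.56, 10.88 and 11.02 on day 1. It rose by 2.84 ± 0.14 (SE, adjusted p = 2.28e-05). Klf2, a Krüppel-like factor of naive cells, rose by 2.98 ± 0.24, from 6.58, 6.01, 6.85 and 6.35 to 9.84, 9.52, 9.39 and 8.96. Both were far apart between stages in each line, and each was the only riser in its list.

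The members that fell included Fgf4, the growth factor by which epiblast cells signal to their neighbours (9.92 to 10.13 against 7.47 to 8.52, -2.0 ± 0.17), and Dppa2 (-1.80), Gdf3 (a TGF-beta family ligand, -1.58) and Dppa4 (-1.29). In the A line Fgf4 and Dppa2 were the lower on day 1, at 7.47 and 7.65 for Fgf4 against 8.43 and 8.52 in the Parental clone. This difference in the change did not pass the test. Of the naive genes, Zfp42 (Rex1), a classical marker of embryonic stem cells, fell by 1.75 ± 0.13, and Nr0b1 (Dax1), an orphan nuclear receptor, by 1.70 ± 0.16. Dppa5a fell by 1.32 ± 0.09 and Tcl1, an activator of the AKT kinase, by 1.46 ± 0.13, to a day 1 mean below 3.95.

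Pou5f1 (Oct4) and Sox2 changed little in value. Pou5f1 read 12.36 to 12.54 in EpiLCs and 12.43 to 12.50 on day 1, a change of 0.01 ± 0.05 (adjusted p = 0.901), and Sox2 changed by 0.12 ± 0.08 (adjusted p = 0.271). The EpiLC markers Fgf5 (0.25 ± 0.08), Otx2 (-0.18 ± 0.08) and Dnmt3b (-0.06 ± 0.05) were likewise not called. In the epiblast list as a whole, 1 of 19 tested genes rose and 3 fell (median -0.18), against 3.64% and 2.49% of all tested genes. Cd24a, a cell surface sialoglycoprotein, rose by 1.68 ± 0.11, from a mean of 10.43 in EpiLCs to 12.12 on day 1, without overlap. Etv4, an ETS factor downstream of FGF signalling, fell by 1.88 ± 0.17.

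Genes of the primitive streak and caudal epiblast gave 4 rises, in both lines, and 0 falls among 11 tested members (median 0.36), and 11 listed genes, T and Wnt3 among them, did not pass the filter or were not on the array under that name. The risers were Nkx1-2, Fgf8, Sp8 and Wnt8a, a WNT ligand of the streak. Wnt8a read 3.24, 3.39, 2.40 and 3.43 in EpiLCs and 6.49, 5.80, 6.11 and 6.23 on day 1 (3.04 ± 0.26 SE, from below 3.95). Not every such gene moved, since 7 tested members were not called. The shares of all tested genes were 3.64% for rises and 2.49% for falls. Among 8 tested WNT targets only Sp8 rose and Lef1 fell, and among 12 BMP targets and inhibitors none was called by limma, with changes from -0.92 to 0.41. Across the 11 retinoic acid genes Rarb, a receptor that is itself induced by retinoic acid, was the one called. It rose by 2.15 ± 0.15, from 2.73 to 3.33 in EpiLCs to 4.93 to 5.27 on day 1. Lef1 (-1.10 ± 0.09) was called in the pooled comparison but not in the Parental clone alone, and read -0.82 with the mean of its probe sets.

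The Nodal pathway, which keeps the epiblast pluripotent and patterns it, had 3 rises and 1 fall among 18 tested genes (median 0.23). Of all tested genes 3.64% rose and 2.49% fell. The ligand Nodal read 9.05, 8.92, 9.17 and 8.84 in EpiLCs and 10.51, 10.22, 10.59 and 10.49 on day 1, a rise of 1.46 ± 0.10 (adjusted p = 8.13e-05). Fst, the secreted antagonist follistatin, rose by 1.99 ± 0.21, and the feedback inhibitor and target Lefty1 by 1.12 ± 0.10, which passed in the pooled comparison but not in each line alone. The ligand Gdf3 fell, as given above. Nodal, Fst and Lefty1 were thus higher on day 1 and Gdf3 lower, while the other 14 tested members were not called. Of the 18 changes 12 were positive and 6 negative.

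FGF and ERK genes gave 1 rise and 5 falls among 20 tested, all in both lines (median -0.18). Of all tested genes 3.64% rose and 2.49% fell. Fgf8 rose while Fgf4 fell, and 4 genes known as targets of the pathway fell with Fgf4. Myc, a proliferation factor, read 8.52, 8.81, 8.56 and 8.65 in EpiLCs and 6.84, 6.73, 6.46 and 6.54 on day 1 (-1.99 ± 0.09). Etv4, Ier3 (-1.25 ± 0.14) and Egr1 (-1.22 ± 0.15) were the others. The remaining 14 tested members were not called, among them Dusp6 (-0.98), Spry4 (-0.40), Spry2 (0.13) and Il17rd (0.95). Over the whole list 8 changes were positive and 12 negative. The immediate early genes, which answer a stimulus within minutes, were divided, with Klf6 (1.62 ± 0.24) and Jun (1.24 ± 0.19) up and Ier3 and Egr1 down among 14 tested.

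Of 13 Notch genes 1 rose and 2 fell, where 3.64% of all tested genes rose and 2.49% fell. The ligand Dll3 fell in both lines, by 1.54 ± 0.13, and the ligand Dll1 fell in the pooled comparison, by 1.14 ± 0.15. Hey2, a transcriptional repressor downstream of Notch, rose by 1.33 ± 0.41 (limma adjusted p = 0.0385) between means under 3.95, and was not called without any one of 6 arrays (1.00 to 1.40). Among 11 neural genes 2 rose and 1 fell. Nes, an intermediate filament of neural progenitors, rose by 1.32 ± 0.07, but changed by 0.68 with the mean of its probe sets. Sfrp2, a secreted Wnt modulator, rose by 1.05 ± 0.11, and changed by 0.95 without replicate 1 of the Parental EpiLCs. Hesx1, a homeobox gene of the anterior epiblast, fell by 1.12 ± 0.16. The 10 tested endoderm genes gave 2 rises, Trh and Foxa2. Foxa2, a pioneer factor of endoderm and node, went from 3.23 to 3.86 in EpiLCs to 4.51 to 5.01 on day 1 (1.07 ± 0.13), and changed by 0.97 without replicate 1 of the Parental EpiLCs. The 6 tested Hox genes gave no call by limma, with changes from -0.48 to 0.66.

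DNA methylation genes tended down, with 3 falls in both lines, 0 rises and a median of -0.43 among 11 tested. Of all tested genes 1.86% fell in both lines. Dnmt3l led the falls of the list. Dnmt3a, a de novo methyltransferase, read 11.95 to 12.09 in EpiLCs and 10.52 to 11.06 on day 1, a fall by 1.22 ± 0.13 (SE), though the mean of its probe sets gave -0.70. Gadd45a, a stress-induced gene linked to demethylation, fell by 1.09 ± 0.09. Dnmt3b, the partner of Dnmt3l in the epiblast, was not called, nor was the maintenance enzyme Dnmt1 (-0.04, adjusted p = 0.609) or the oxidase Tet1, whose change of -0.96 was just below the limit. None of the 17 histone modifiers tested was called, their changes running from -0.66 to 0.39.

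Among 19 tested imprinted genes 2 rose and 3 fell (median -0.02), where 3.64% of all tested genes rose and 2.49% fell. Ascl2, a factor of the trophoblast expressed from the maternal allele, read 6.85, 6.77, 6.39 and 6.52 in EpiLCs and 4.58, 4.42, 3.91 and 4.31 on day 1 (-2.33 ± 0.10). Peg3, a paternally expressed zinc finger gene, fell by 1.14 ± 0.06. The paternally expressed Plagl1 rose by 1.65 ± 0.12 and Impact by 1.64 ± 0.08, though Impact changed by 0.46 with the mean of its probe sets. Phlda2, a maternally expressed growth regulator of the placenta, fell by 1.07 ± 0.07 in the pooled comparison. The called genes expressed from the paternal allele thus lay on both sides. Ascl2 and Phlda2, expressed from the maternal allele, fell, but Phlda2 was not called in the Parental clone alone (-0.98). These 2 genes do not show a pattern by allele. In the list 14 genes were not called, and 9 of the 19 changes were positive and 10 negative.

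Hypoxia genes made the other large group of falls. Of all tested genes 2.49% fell and 3.64% rose. Of 19 tested hypoxia genes, 10 fell (8 in both lines) and 1 rose, with a median of -1.01. Low oxygen stabilises HIF factors, which switch these genes on to raise glucose use and blood vessel growth. Bnip3, which directs mitochondria to breakdown, read 10.80 and 10.72 in Parental EpiLCs and 10.18 and 10.89 in those of the A line, then 8.57, 8.56, 8.39 and 8.56 on day 1. It fell by 2.13 ± 0.15 (SE, adjusted p = 7.78e-05), and its day 1 arrays were the more alike. Egln3, an oxygen sensor that HIF itself induces, fell by 1.88 ± 0.17, and Pdk1, which keeps pyruvate out of mitochondria, by 1.82 ± 0.11. Ddit4, an inhibitor of mTORC1, fell by 1.75 ± 0.19, from 11.21 to 12.12 to 9.87 to 10.18. Epas1 (HIF-2 alpha), itself a HIF factor, fell the most in the list, from 8.43, 8.32, 7.84 and 8.30 to 5.56, 5.33, 5.23 and 5.11 (-2.92 ± 0.11). Vegfa, the vascular growth factor, fell by 1.48 ± 0.17 (-0.91 with the mean of its probe sets).

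The exception was Slc2a3, a glucose transporter, which rose by 1.87 ± 0.16, from 9.79 to 10.50 in EpiLCs to 11.98 to 12.24 on day 1. The transporter Slc2a1 changed by 0.29 and the oxygen sensor Egln1 by -0.01, and neither was called. Enzymes of glycolysis, part of them also HIF targets, lay on the same side with smaller values, since 12 of 13 had a negative change, 4 fell and the median was -0.64. Of these only Pfkl, a phosphofructokinase, fell in both lines, by 1.10 ± 0.09, and it read -0.81 with the mean of its probe sets.

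HIF binds the core ACGTG or GCGTG. One of them, on either strand, was found in the 250 bases before the first listed start in 14 of 16 tested hypoxia genes with a listed promoter (87.5%) and in 5 of the 7 among them that fell in both lines (71.4%), against 54.5% of all tested genes. Among all genes changed in both lines the share was lower, at 49.2% for those that fell and 46.4% for those that rose. ACGTG is contained in CACGTG, so both searches can count the same letters. The Bnip3 stretch, at chr7:138909507-138909756 on the minus strand of GRCm38.p6 and from RefSeq, is shown because it holds 5 such matches, with ACGTG or GCGTG on either strand in capitals (CACGT and CACGC are the same cores on the opposite strand).
Bnip3: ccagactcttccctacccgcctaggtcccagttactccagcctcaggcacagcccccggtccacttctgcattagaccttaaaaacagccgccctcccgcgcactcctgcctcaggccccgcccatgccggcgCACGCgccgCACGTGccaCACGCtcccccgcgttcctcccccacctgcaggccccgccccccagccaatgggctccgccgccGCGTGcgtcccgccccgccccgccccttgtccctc
The matches describe the letters of this window and give no site of binding in these cells.

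Of 21 tested YAP and SRF targets and actin genes, 4 rose (19%, 3 of them in both lines) and 0 fell, with a median of 0.06, where 3.64% of all tested genes rose. Tagln (transgelin), an actin-binding protein of smooth muscle, read 6.49, 6.81, 7.13 and 6.64 in EpiLCs and 9.60, 9.42, 9.88 and 9.37 on day 1 (2.80 ± 0.16 SE). Cnn1, a calponin, rose by 1.88 ± 0.08. Thbs1, a matrix glycoprotein, rose by 1.39 ± 0.17 (0.84 with the mean of its probe sets). In this list 17 members were not called, among them Ccn1 (0.16), Ccn2 (0.30) and Amotl2 (-0.91). Tagln is also on the list of 10 fibroblast or feeder markers, whose mean level was 4.34 to 4.88 on EpiLC arrays and 4.95 to 5.15 on day 1 arrays. Of the fibroblast or feeder list 7 markers were above the filter in EpiLCs and 6 on day 1. Col1a1, Postn and Pdgfrb lay below it at both stages, and no marker was at 0. The part of these markers in the result was not tested.

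Among 22 matrix and integrin genes 3 rose (13.6%) and 0 fell, among them Col4a1, a basement membrane collagen (1.17 ± 0.09, and 0.98 with the mean of its probe sets). Among 21 adhesion genes 4 were called (19%), where 857 of all 14002 tested genes were called. By direction, 3.64% of all tested genes rose and 2.49% fell. Zeb2 and Pcdh8 rose, while Snai2 (Slug), another repressor of epithelial genes, fell by 1.64 ± 0.24 and the tight junction gene Cldn5 by 1.50 ± 0.09. Of 15 epithelial and trophectoderm genes, the keratin gene Krt8 rose by 2.06 ± 0.10, from 7.04 to 7.32 in EpiLCs to 9.15 to 9.50 on day 1. Perp, a desmosome gene, rose by 1.12 ± 0.09 and the keratin gene Krt7 fell by 1.20 ± 0.13. Trophectoderm markers did not rise with Krt8, as 2 of 5 were above the filter at each stage and their array means were 3.81 to 4.34 in EpiLCs and 3.34 to 3.99 on day 1.

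Among growth and stress genes few members of each list were called. In either direction, 2 of 29 cell cycle genes were called (6.9%), 1 of 14 p53 targets (7.14%) and 2 of 11 NRF2 and metallothionein genes (18.2%). The matching count over all tested genes was 857 of 14002 (3.64% rose and 2.49% fell). The cell cycle and p53 shares were thus near that of all tested genes. Cdkn2a, a cell cycle inhibitor, fell by 1.98 ± 0.10 (SE), from 7.70 to 7.99 in EpiLCs to 5.47 to 6.27 on day 1, and Cdkn1b (p27) rose by 1.28 ± 0.09 (0.98 with the mean of its probe sets). The other 27 of 29 cell cycle genes tested were not called. Nupr1, a stress-induced chromatin protein, was the one called among 23 amino acid and unfolded protein response genes (-1.85 ± 0.17), although 21 of the 23 had a negative change and the median was -0.52. Nqo1, a quinone reductase under NRF2, fell by 1.86 ± 0.12, and Mt2, a metallothionein, fell by 1.07 ± 0.06 in the pooled comparison. No cholesterol synthesis gene of 20 (median -0.37), no fatty acid gene of 13 and no heat shock gene of 10 was called by limma. Of 14 p53 targets the one called was Perp.

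**Figure D3:**
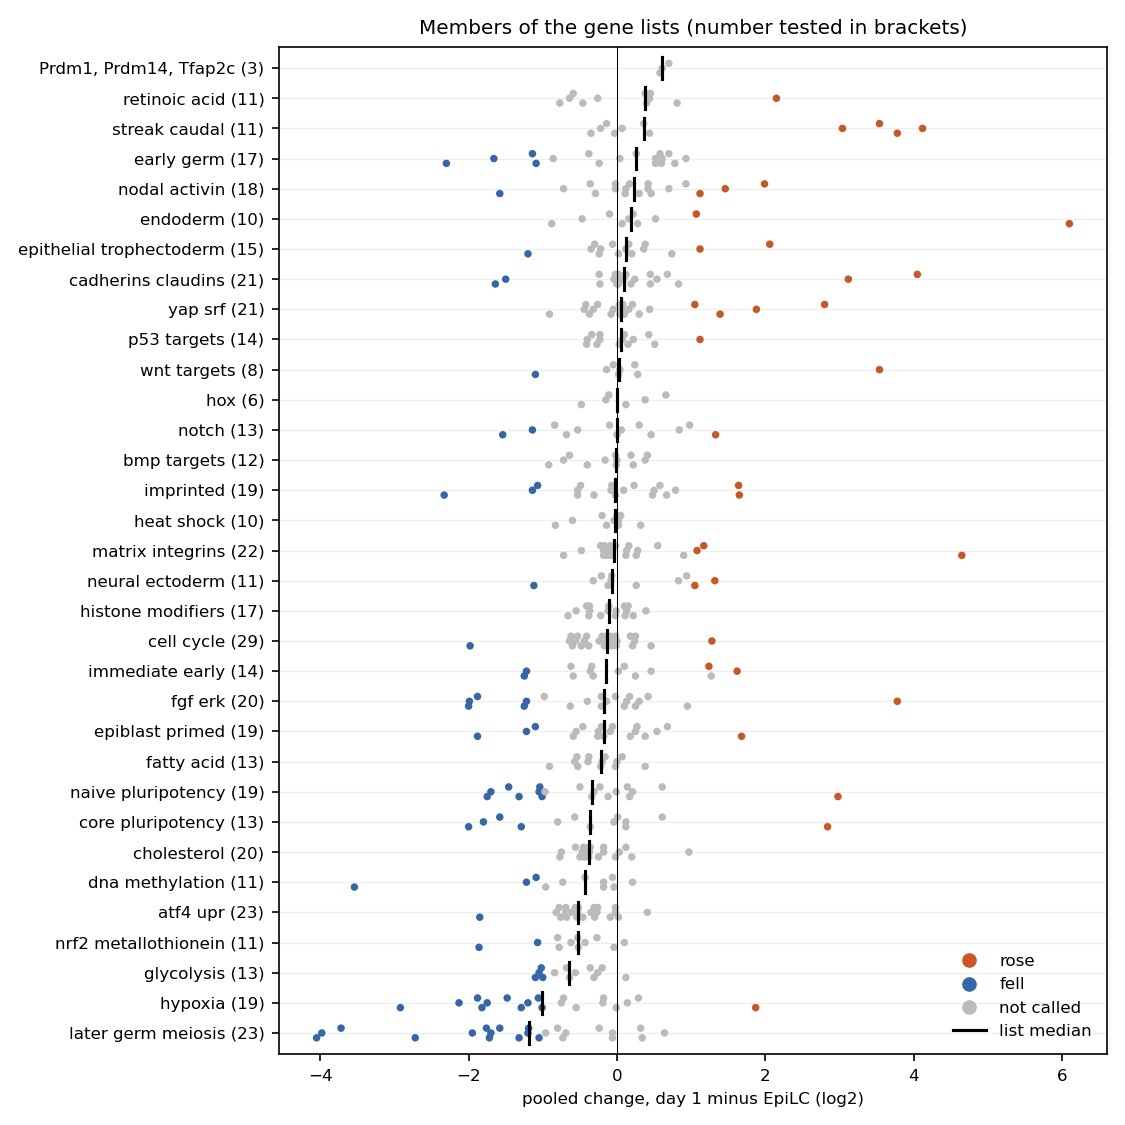
Pooled change from EpiLC to day 1 (log2) of each tested member of the 33 gene lists, one point per gene and one row per list, ordered by the list median (black bar), with the number tested in brackets. Orange points rose, blue points fell and grey points were not called; the later germ and meiosis list (-1.19) and the hypoxia list (-1.01) have the lowest medians.

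Early germ cell genes gave 0 rises and 4 falls among 17 tested, with a median of 0.26. The list lay on both sides, with 10 positive and 7 negative changes, and 13 members were not called. The shares of all tested genes were 3.64% for rises and 2.49% for falls. Dppa3 (stella) is a marker of primordial germ cells, and one reporter bears its name. It read 7.27, 7.35, 6.95 and 7.23 in EpiLCs and 6.23, 5.97, 5.61 and 6.44 on day 1. It fell by 1.14 ± 0.18 (SE, adjusted p = 0.00252), and by 0.99 without replicate 1 of the A line aggregates, which is below the size limit. Ifitm3 (Fragilis), a membrane protein of nascent germ cells, fell by 1.66 ± 0.08, from 9.53 to 9.79 in EpiLCs to 7.84 to 8.30 on day 1. Its neighbour in the family, Ifitm1, fell by 1.09 ± 0.10 in the pooled comparison. Rhox6, an X-linked homeobox gene, fell from a mean of 3.94 in EpiLCs, under the level of 3.95, to 1.63 on day 1 (SE of the difference 0.60, limma adjusted p = 0.0195), and was not called without replicate 1 of the Parental aggregates (-2.07) or without either A line EpiLC array (-2.06 and -2.23).

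The genes of the 3 transcription factors stayed below the size limit. Prdm1 changed by 0.58 ± 0.10 (adjusted p = 0.00401) and Prdm14 by 0.61 ± 0.29 (adjusted p = 0.135). For Tfap2c the change was 0.70 ± 0.08 (adjusted p = 0.00064). The highest day 1 array read 5.18 for Prdm1, 4.06 for Prdm14 and 6.38 for Tfap2c. By comparison, Tfap2c changed by 6.30 in BP14A, 4.30 in B and 5.50 in P14, and Prdm1 by 4.40, 1.86 and 2.50. Prdm14 changed by 1.84, 1.51 and -0.32, each with an SE of 1.15, and was called in none of them by limma. In the line labelled P14 its mean was 3.82 in EpiLCs and 3.50 on day 1 (adjusted p = 0.875), both under the level of 3.95, so its label was not borne out at this probe set, and no source used here says whether the probes can read the transgene.

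The lines labelled as carrying a Blimp1 or Prdm14 transgene show how far the same genes changed in other clones under the same aggregation and doxycycline. Each was set against its own EpiLCs, so the sizes of change share no array with those of the Parental and A lines, and each line is 1 clone. The calls are not independent, because the fit of all group means gave a gene the same standard error in every line. A gene with a small standard error is favoured in every line, which by itself favours shared calls. Of the 392 rises, 321 (81.9%) were also called as rises in B, against 5.73% of all tested genes, 215 (54.8%) in BP14A against 5.71% and 209 (53.3%) in P14 against 4.29%. Of the 260 falls, 203 (78.1%) were called as falls in B (3.94%), 158 (60.8%) in BP14A (4.87%) and 150 (57.7%) in P14 (3.71%). Thus 161 rises (41.1%) and 121 falls (46.5%) were shared by all 5 lines, and 42 rises and 36 falls were called the same way in none of the 3. Uap1l1 (3.92, 3.36 and 3.48 in BP14A, B and P14), Mcoln3, Tagln and Nanog rose, and Rpl39l, Dnmt3l, Tdrd12 and Bnip3 fell, in all 5 lines.

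Some changes differed between lines by a test of the difference itself, with an adjusted p under 0.05 and a difference of at least 1 from the mean of the Parental and A lines. Among the rises this held for 138 genes in BP14A, 56 in B and 113 in P14, of which 110, 28 and 98 lay on the side of less change. Over all tested genes 6.83%, 2.46% and 4.79% differed. Among the falls there were 89, 38 and 84, with 72, 27 and 77 on that side. The change in the Parental and A lines enters both the choice of the genes and the difference, which by itself favours that side.

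A few genes turned round. Pcdh8, raised by 3.12 in the Parental and A lines, fell by 2.31 in BP14A and by 1.31 in B, and changed by -0.78 in P14. Tcl1 changed by 4.14 in BP14A, 1.08 in B and 3.29 in P14 against -1.46, and Dppa3 by 4.32, 1.74 and 2.66 against -1.14, rises in all 3 lines. Epas1 rose by 1.67 in BP14A and 1.72 in P14 but fell by 1.82 in B. Nt5e, an ecto-nucleotidase, and Has2, a hyaluronan synthase, both named after their values were seen, rose by 2.65 and 1.62 in the Parental and A lines. Has2 fell by 1.90, 1.96 and 1.93 in BP14A, B and P14, and Nt5e fell by 2.32 in BP14A and 1.86 in P14 and changed by 0.32 in B. The secreted antagonist Fst fell in BP14A (-1.76) and B (-1.01), and Nodal fell in B (-1.80).

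**Figure D4:**
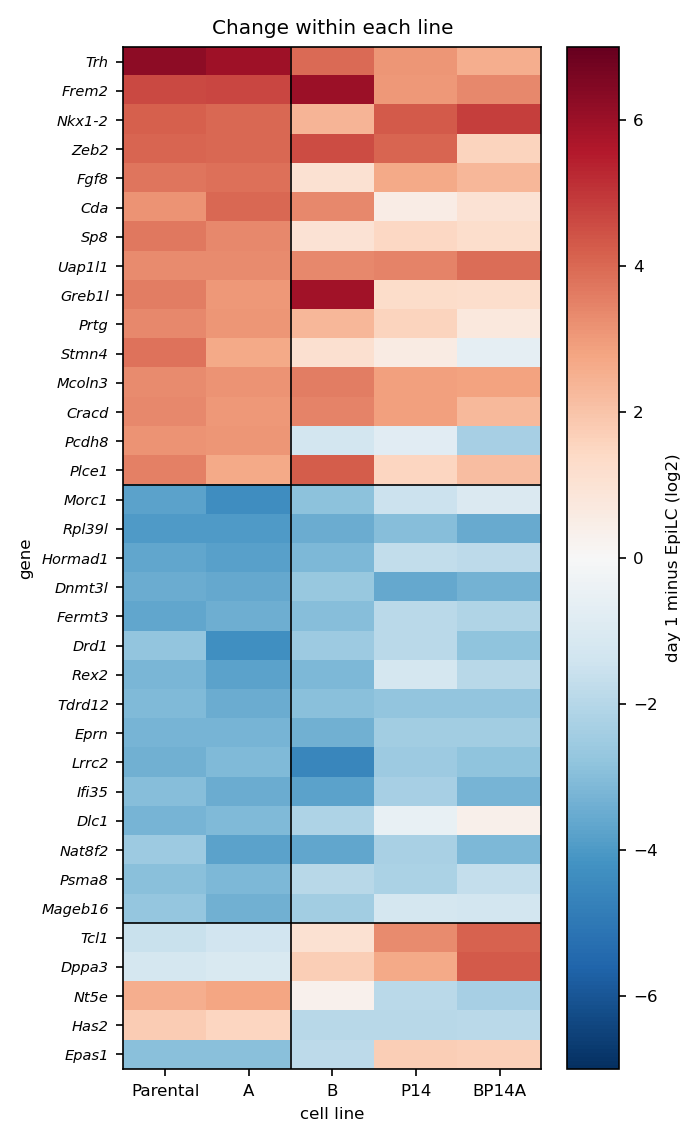
Change from EpiLC to day 1 (log2, colour) within each of the 5 cell lines (columns) for the 15 largest rises, the 15 largest falls and the genes with the largest opposite difference in the other lines (rows, separated by black lines). Rpl39l and Dnmt3l are blue throughout, whereas Pcdh8 goes from 3.14 in the Parental clone to -2.31 in BP14A.

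The sequences before the start sites of the genes changed in both lines differed a little in composition from those of all tested genes. A RefSeq promoter was listed for 295 of the rises, 199 of the falls and 11270 of all tested genes. The median GC content of the 250 bases before the first listed start was 61.6% for rises and 56.4% for falls, against 59.6% over all tested genes, and the median number of CpG dinucleotides was 15, 9 and 15. X-linked genes made up 6.15% of the rises, 5.02% of the falls and 3.42% of tested genes. These values are given as a description, without a test.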

How the data were processed

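RNA of 20 samples was measured on Affymetrix arrays from biotin-labelled cRNA made by the one-cycle protocol, per the labels' protocols. The table deposited by the authors holds log2 values per probe set; the base was inferred from their range, 0 to 13.83, while the normalization and the software are unstated (not given in the sources used here). Per the platform annotation, 34945 probe sets name 1 gene, 932 several and 9160 none (64 controls aside). A probe set stayed in if its highest group mean reached the 40th percentile of all values (3.95), and the one with the highest mean stood for its gene. This gave 14010 genes, of which 8 (Y-linked genes, Erdr1 and Mid1) were left out.

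The pooled change was fitted by limma 3.58.1 (R 4.3.3; Python 3.11.15) to 8 arrays with line as covariate (5 residual degrees of freedom). Changes within lines, and differences between them, were contrasts of 10 group means over all 20 arrays (10 residual degrees of freedom). P-values are two-sided, Benjamini-Hochberg adjusted over all genes, and 2 arrays per group limit precision. Errors are limma standard errors. The fit was tested on simulated data. The members, the 33 gene lists, the thresholds and the naming rule were chosen with earlier results of these data known. Named genes are the 15 largest changes each way, called list members (at most 6 per list and direction), and Pou5f1, Sox2, Fgf5, Otx2, Dnmt3b and the 3 factors; others are said to be named after their values were seen. Promoters are RefSeq, GRCm38.p6. Alternatives covered the filter, the probe sets of a gene, scaling, threshold, variance prior, block and each array left out.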

Additional observations from a re-analysis of the deposited data

Results flagged for a closer look

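These genes are listed because their change from EpiLC to day 1 in one of the other lines differed from the mean change of the Parental and A lines by a limma test of that difference. The value is that line's change minus the mean of the Parental and A lines (log2), for the line with the largest such difference. The genes were chosen for a large change in the Parental and A lines, or for the size of this difference.

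In BP14A the difference was -3.54 for Trh, -2.50 for Zeb2, -2.51 for Prtg, -3.88 for Stmn4, -5.43 for Pcdh8 and -4.96 for Nt5e, all of which had risen in the Parental and A lines. In the same line it was 3.04 for Morc1, 3.51 for Dlc1, 1.36 for Psma8, 5.61 for Tcl1 and 5.46 for Dppa3, which had fallen there.

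In B the difference was -1.77 for Nkx1-2, -2.74 for Fgf8, -2.50 for Sp8 and -3.58 for Has2. Greb1l rose more in B, by 2.59, and Lrrc2 fell more, by a difference of -1.33.

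In P14 it was -1.62 for Frem2, -3.08 for Cda and -1.59 for Plce1 among the rises. Among the falls it was 1.02 for Rpl39l, 1.99 for Hormad1, 1.66 for Fermt3, 2.24 for Rex2, 1.82 for Mageb16 and 4.64 for Epas1.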

How the results depend on the processing

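The counts of genes changed, pooled and in both lines, stayed within 1.5 times their values in every alternative run. The rises were fewest with the mean of all probe sets of a gene (390 pooled, with 334 falls, and 283 in both lines, with 248 falls), where 500 of the 652 kept their call in both lines. The falls were fewest with the filter at the 60th percentile in the pooled comparison (275) and with treat in both lines (204). Centring each array on its median gave 556 rises and 322 falls, and quantile normalization 473 and 363. Leaving out each array in turn gave 485 to 520 rises and 337 to 366 falls pooled, and 356 to 381 rises and 231 to 271 falls in both lines; the lone array is then assumed to vary like the other groups. The count of called differences between the lines was 1 with 4 group means over 8 arrays (Fbxl8, 1.92), and 0 to 2 with an array left out. The genes were Lrrc36 (-2.22) without replicate 1 of the Parental EpiLCs, Cyp1b1 (3.99) and Fahd2a (3.57) without replicate 2 of the Parental aggregates, and Crct1 (-1.73) without replicate 2 of the A line aggregates. The cause was not tested. The replicate numbers did not pair the samples (correlations of deviations 0.0110 to 0.0724); with the replicate block, 510 genes rose and 344 fell pooled, 392 and 265 in both lines, and the lines differed in 0. Of 111 named genes, 22 lost or gained a call or changed sign somewhere. Pou5f1 read -0.02 without replicate 1 of the Parental EpiLCs, and -0.01 and 0 without replicates 1 and 2 of the Parental aggregates, in a range up to 0.04. Some called list members near the limits lost their call when an array was left out, which lowers the list counts: Fbxo15 (-0.99), Sfrp2 (0.95), Foxa2 (0.97), Pfkp (-0.92), Aldoc (-0.88) and Col4a2 (0.89) without replicate 1 of the Parental EpiLCs; Pecam1 (-0.99), Aldoc (-0.92) and Col4a2 (0.99) without replicate 2 of the Parental aggregates; Pfkp (-0.98), Rhox6 (-2.07) and Acta2 (0.98) without replicate 1 of these. The same held for Fbxo15 (-0.98), Pecam1 (-0.90), Pfkp (-0.99), Pfkfb3 (-0.88) and Acta2 (0.86) without replicate 2 of the A line EpiLCs, for Pecam1 (-0.94), Dppa3 (-0.99), Pfkfb3 (-0.99) and Acta2 (0.94) without replicate 1 of the A line aggregates, and for Pfkfb3 (-0.96) without replicate 2 of these. Hey2 lost its call without any one of 6 arrays (1.00 to 1.40), with the replicate block and without the filter. Another probe set of the gene was called the same way in 160 of the 307 genes that have one, and the opposite way in 0. In 247 of the 307 every other probe set had the same sign. Some probe sets of Nkx1-2 (0.26), Cracd (-0.60), Fermt3 (-0.09) and Dlc1 (-0.01) did not follow the tested one. Others of Fermt3 (-1.51) and Dlc1 (-2.79) did. Genes near the filter of 3.95 have uncertain sizes.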

Other observations

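The A line differed from the Parental clone at both stages in few genes, which were named after their values were seen. With line as the tested term of the pooled limma fit, 0 genes were higher in the A line and 3 were lower. H13, a signal peptide peptidase, read 8.11 and 8.43 in Parental EpiLCs and 9.16 and 8.89 in Parental aggregates, against 6.51, 6.82, 7.26 and 7.35 in the A line (-1.66 ± 0.11 SE, adjusted p = 0.0115). The group means of the other lines lay between 8.64 and 9.32, so the A line stood below all of them. Mcts2, an imprinted retrogene that lies within H13 and is expressed from the opposite parental allele, was 0.60 ± 0.06 higher in the A line, which did not pass (adjusted p = 0.0552). Its A line arrays read 10.14 to 10.45 and its Parental arrays 9.56 to 9.87, without overlap. Gnptab, a subunit of the enzyme that tags lysosomal proteins, was lower by a difference of -1.03 (adjusted p = 0.0104), and Ufsp2, a UFM1 protease, by -1.01 (adjusted p = 0.0379). For Ufsp2 the other lines lay nearer the A line, with EpiLC means of 6.92, 7.04 and 6.72 in BP14A, B and P14 against 7.86 and 7.72 in the Parental clone and 6.57 and 6.60 in the A line.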
